A study of Homo sapiens with 9 samples.

Results

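The genes examined lay on human chromosome 18 and were measured by Affymetrix HU133A arrays in MDA-MB-231, a mesenchymal-like human breast cancer cell line. Every probe set that names 1 gene was taken where the RefSeq gene table places that gene on chromosome 18, apart from 13 genes of the chromosome that the selection left out (ATP5F1A, BCL2, CDH2, MAPRE2, MBD1, MBD2, NDUFV2, NPC1, PMAIP1, SERPINB5, SMAD7, TUBB6 and TYMS). This gave 267 of 22215 human probe sets and, with the brightest probe set kept per gene, 161 of 11964 genes. The short arm held 45 of these genes and the long arm, from ROCK1 on, 116. No member was removed by a filter on low values. The chromosome was selected on the intensities of these arrays: earlier results had shown many of its genes at higher levels in the resistant lines, where its median difference and its share of genes called higher ranked 1st of 24 chromosomes in both. Its counts and medians against sensitive cells are therefore a description, and no test of the chromosome or of an arm was made. The adjusted p-values of single genes come from 1 fit over all 11964 genes.

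The study had 3 groups of 3 arrays, each array from a separate passage of its line. Sensitive cells grew with 1 µM verapamil. The docetaxel-resistant line grew with 2 nM docetaxel and 1 µM verapamil, and the paclitaxel-resistant line with 7 nM paclitaxel and 1 µM verapamil. Verapamil is therefore shared by all groups according to the sample descriptions, although the treatment protocol names it for the sensitive cells only. Each resistance is represented by 1 line, so n = 3 counts passages and p-values measure the spread between passages. A property of a line, of its resistance and of the drug in its medium cannot be told apart. The drug doses of the resistant lines also differed.

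Docetaxel and paclitaxel are taxanes, which bind beta-tubulin and stabilise microtubules, and verapamil inhibits the drug efflux pump P-glycoprotein. Chromosome 18 is one of the smaller and gene-poor human chromosomes. Its long arm carries SMAD2 and SMAD4, the transducers of TGF-beta signals, and DCC, and this arm is often lost in carcinomas. It also carries the desmosomal cadherin cluster and a cluster of clade B serpins. The short arm carries MYL12A and MYL12B, which encode regulatory light chains of non-muscle myosin. The arrays measure RNA; DNA copy number was not analysed here.

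The line's label was checked against its markers. VIM, the mesenchymal intermediate filament, had mean intensities of 8335 in sensitive, 4682 in docetaxel-resistant and 5223 in paclitaxel-resistant cells, and was called lower in both resistant lines (-0.74 and -0.60 on the log2 scale, limma adjusted p = 0.00229 and 0.00737). CD44, of the same list of 6 genes, was called lower with docetaxel (-0.54, adjusted p = 0.0439) but not with paclitaxel (-0.20, adjusted p = 0.478). The other genes of the list were called in neither line. Their means in sensitive, docetaxel-resistant and paclitaxel-resistant cells were 538, 465 and 642 for AXL and 1059, 1070 and 1013 for CAV1. KRT18 had 3640, 3325 and 3154, and ZEB1, a mesenchymal transcription factor, was near background at 19.5, 15.8 and 14.9. The summed intensity of 8 luminal genes was 1818 to 2097 on the sensitive, 1964 to 2204 on the docetaxel-resistant and 1550 to 2114 on the paclitaxel-resistant arrays. KRT19 made up most of it, with means of 1519, 1618 and 1428, and ERBB2 had 154, 208 and 193. PGR, at 7.84, 8.68 and 9.60, and EPCAM, at 22.1, 14.8 and 14.3, were near background. FOXA1, a luminal transcription factor, was the 1 luminal gene called, higher in both lines, from a mean of 5.74 to 22.1 and 28.2 (0.78 and 1.02, adjusted p = 0.00189 and 0.000345). The summed intensity of 6 fibroblast genes was 204 to 236 on the sensitive, 209 to 240 on the docetaxel-resistant and 186 to 232 on the paclitaxel-resistant arrays, and none of them was called. Of 5 blood genes 4 were measured, with a sum of 457 to 559, 543 to 592 and 556 to 653, and none was called. HBB gave most of that sum, with means of 378, 412 and 447, while PTPRC had 9.29, 9.90 and 7.80. Of 4 melanocytic genes 3 were measured, with a sum of 125 to 171, 112 to 154 and 122 to 145, and none was called. The part of these marker levels in the results below was not tested. The median intensity per array ran from 33.7 on sensitive replicate 2 to 43.9 on docetaxel-resistant replicate 3, and the same arrays lay at opposite ends of the main axis of spread within groups. Counts and the named calls that ended without both arrays are given below.

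Genes of both arms were at higher levels in the docetaxel-resistant line than in sensitive cells, with the higher median on the short arm. Of 45 short-arm genes 19 rose and 0 fell, and the median log2 difference was 0.56. Of 116 long-arm genes 28 rose and 2 fell, with a median of 0.12. A gene is called where its adjusted p (limma, Benjamini-Hochberg over all genes) is below 0.05; 21.0% of all genes were called here, 10.8% higher and 10.2% lower, with a median difference of -0.05. Among the 161 members 29.2% were called higher and 1.24% lower, from which nothing is read because the comparison served in the choice. All 3 resistant arrays lay above all 3 sensitive ones for 54 members (16.3% of all genes) and below them for 9 (20.5% of all genes). The rises spanned log2 differences of 0.69 to 1.95 on the short arm and 0.61 to 2.09 on the long arm, where 1 is a 2-fold change. Without sensitive replicate 2 and docetaxel-resistant replicate 3, 33 of the 161 members were called, 14 short-arm and 17 long-arm genes of them higher. The short-arm median was 0.35 there, and the share of all genes called in that fit is not given. Named genes whose docetaxel call ended there were, on the short arm, TWSG1 (difference 1.04, adjusted p = 0.0511), YES1 (0.76, 0.0681), MYL12B (0.70, 0.068), NDC80 (0.61, 0.301) and NAPG (0.45, 0.137). On the long arm they were VPS4B (0.81, 0.0825), SMAD2 (0.60, 0.0645), SS18 (0.49, 0.217), TXNL1 (0.49, 0.0737), WDR7 (0.49, 0.0965), SMAD4 (0.43, 0.14), RNF138 (0.41, 0.241) and CABYR (-0.40, 0.162). All of them kept their direction.

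The paclitaxel-resistant line gave similar counts against the same 3 sensitive arrays, so these counts are not independent of those above. On the short arm 18 of 45 genes rose and 2 fell (TGIF1 and IMPA2), with a median of 0.50. On the long arm 29 of 116 rose and 2 fell (SIGLEC15 and ATP9B), with a median of 0.16. Over all genes 21.6% were called, 10.8% higher and 10.7% lower, and the median was -0.02. The groups were apart upward for 58 members (16.3% of all genes) and downward for 9 (18.5% of all genes). Rises ranged from 0.58 to 1.96 on the short arm and from 0.44 to 2.55 on the long arm. Without the 2 arrays named above, 48 of the 161 members were called, in a fit whose share of all genes is not given. Named calls that ended were those of TGIF1 (-0.70, adjusted p = 0.0755), IMPA2 (-0.46, 0.051), SIGLEC15 (-0.46, 0.0825) and OSBPL1A (0.46, 0.0736).

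**Figure D1:**
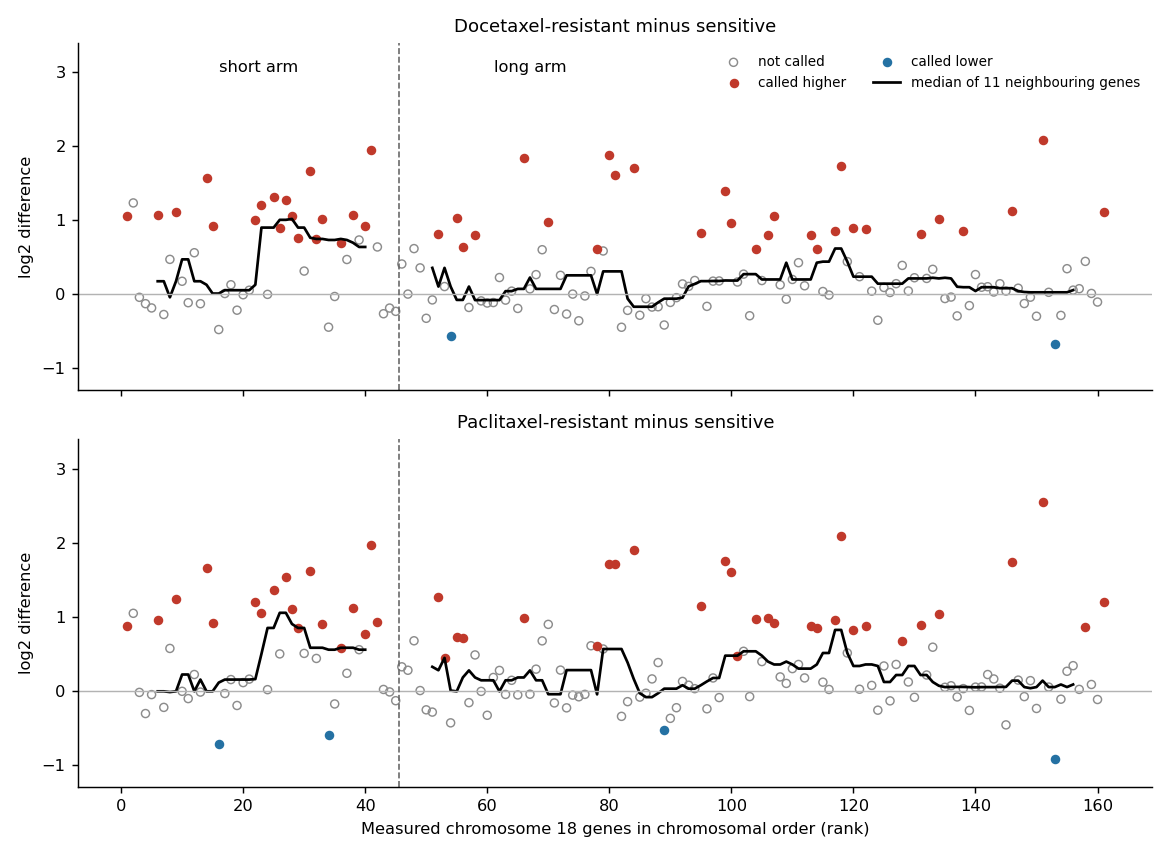
Log2 difference from sensitive cells of each of the 161 measured genes, in chromosomal order (x axis, rank; dashed line, boundary of the arms), for the docetaxel-resistant line (top) and the paclitaxel-resistant line (bottom). Filled points passed the test, and the black line is the median of 11 neighbouring genes; it is highest on the short arm, at 1.02 and 1.05.

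The size of the differences varied along the arms. On the short arm the median of 11 neighbouring genes was highest from MTCL1 to MPPE1 in the docetaxel-resistant line, at 1.02 with 9 genes called higher. In the paclitaxel-resistant line it reached 1.05, with 7 called higher, in the windows from LAMA1 to GNAL and from PTPRM to CHMP1B. The window near the end of the short arm, from COLEC12 to MYOM1, was lowest on that arm, at -0.04 and -0.02. On the long arm the window from TCF4 to ZNF532 was highest in both lines, at 0.62 and 0.82, each with 6 genes called higher. The lowest long-arm windows lay at -0.17 in the docetaxel-resistant line and at -0.09 in the paclitaxel-resistant line, all of them between RPRD1A and PIAS2. These windows overlap heavily and were located from the values themselves.

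Array by array, the short-arm median was higher on all resistant arrays than on all sensitive ones. The chromosome was chosen for its rises on these same arrays, so this is a description that supports nothing. The short-arm median relative to the sensitive mean, which centres the sensitive arrays by construction, was 0.06, -0.15 and 0.03 on the sensitive arrays. On the docetaxel-resistant arrays it was 0.36, 0.54 and 0.63, and on the paclitaxel-resistant arrays 0.64, 0.39 and 0.39. No resistant array reached down to a sensitive one, and the resistant groups overlapped each other. The long-arm median ran from -0.02 to 0.00 on the sensitive arrays, from 0.09 to 0.18 on the docetaxel-resistant and from 0.14 to 0.24 on the paclitaxel-resistant ones. The median of all genes lay between -0.11 and 0.02 on every array.

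**Figure D2:**
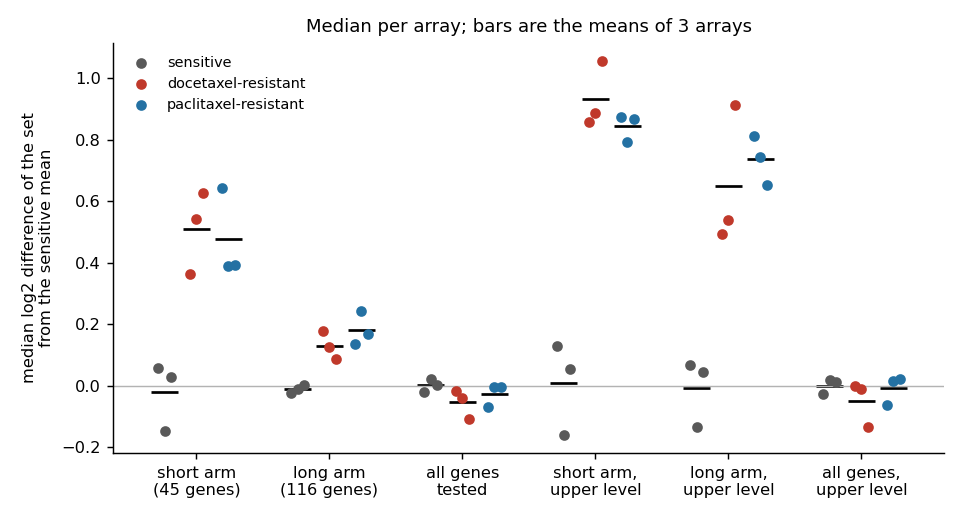
Median log2 difference from the sensitive mean (y axis) of the short arm, the long arm and all genes tested, on each of 9 arrays (points; bars are the means of 3 arrays), for all genes (left) and for genes at or above the median level over all 9 arrays (right, a class that a gene can enter through its resistant arrays). All 6 resistant arrays lie above all 3 sensitive arrays for both arms, on the arrays that served in the choice of the chromosome. The medians of all genes stay within 0.14 of 0.

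The genes were also divided by their brightness. Their level was the mean over all 9 arrays, 6 of them resistant, so a gene that rose could enter the upper class through the arrays where it was high, as 8 of the 57 upper members did. The counts by level are therefore a description and support nothing. Among genes at or above the median level of all genes (an intensity of about 54.4), 14 of 18 short-arm genes rose in the docetaxel-resistant line, with a median difference of 0.92. In the paclitaxel-resistant line 12 of 18 rose and 2 fell, with a median of 0.86. On the long arm 20 of 39 such genes rose in the docetaxel-resistant and 22 of 39 in the paclitaxel-resistant line, with medians of 0.61 and 0.67. Of all genes at that level 17.1% and 17.7% rose. Below it 5 of 27 and 6 of 27 short-arm genes rose, and 8 of 77 and 7 of 77 long-arm genes, beside 4.43% and 3.93% of all genes. With the level taken from the 3 sensitive arrays alone, a division added after seeing the data, 13 of 17 upper short-arm genes rose with docetaxel and 11 of 17 with paclitaxel. On the long arm 13 of 32 and 16 of 32 rose, beside 13.2% and 14% of all genes. Below that level 6 of 28 and 7 of 28 short-arm genes rose, and 15 of 84 and 13 of 84 long-arm genes, beside 8.32% and 7.66% of all genes. This division leans the other way, since a gene low on the sensitive arrays by error enters the lower class. Near background the added offset shrinks any difference, so a dim gene that was not called has no clear direction.

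**Figure D3:**
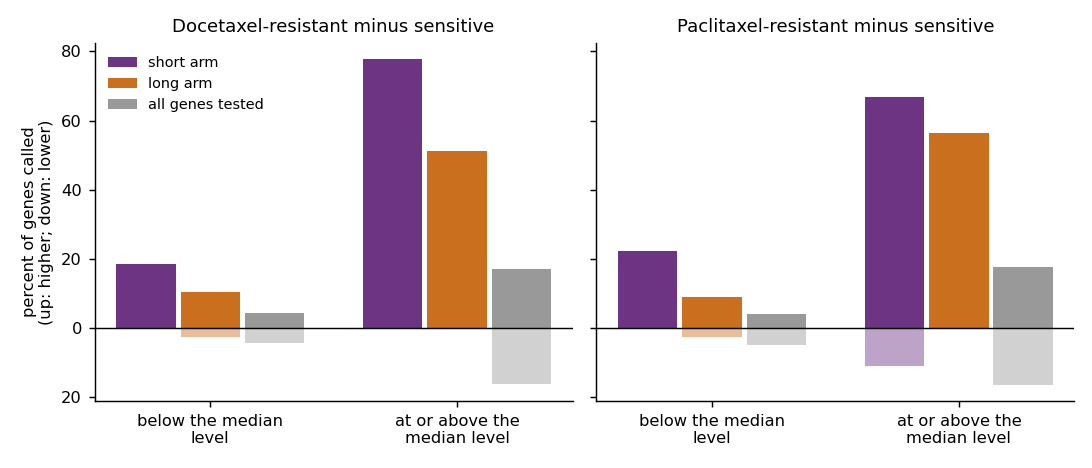
Percent of genes called higher (upward bars) and lower (downward, paler bars) against sensitive cells, below and at or above the median level of all genes over all 9 arrays, which include those where a gene rose, for the short arm, the long arm and all genes tested. At the upper level 77.8% and 66.7% of short-arm genes and 51.3% and 56.4% of long-arm genes were called higher in the docetaxel- and paclitaxel-resistant lines.

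Both myosin light chain genes of the short arm rose, while the next measured gene, TGIF1, did not. MYL12A, a regulatory light chain of non-muscle myosin, had intensities of 219.57, 173.61 and 185.79 in sensitive cells, 583.49, 644.79 and 696.16 in the docetaxel-resistant line and 753.14, 683.57 and 567.96 in the paclitaxel-resistant line. The lowest resistant array was more than 2-fold above the highest sensitive one. The log2 difference was 1.56 ± 0.13 (SE; limma adjusted p = 1.53e-05) in the docetaxel-resistant and 1.67 ± 0.13 (adjusted p = 1.09e-05) in the paclitaxel-resistant line. MYL12B, its near-identical paralogue, had 897.37, 415.74 and 531.03 in sensitive cells, 1036.78, 1132.37 and 1365.76 with docetaxel and 1212.79, 954.71 and 1226.18 with paclitaxel. The groups did not overlap, but the gap to sensitive replicate 1 was small. It rose by 0.92 ± 0.19 (adjusted p = 0.00582) and 0.91 ± 0.19 (adjusted p = 0.0057), and without sensitive replicate 2 and docetaxel-resistant replicate 3 the docetaxel difference was 0.70 and did not pass (adjusted p = 0.068). Transcripts of such close paralogues can share probes.

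TGIF1, a homeodomain repressor of TGF-beta responsive genes, had 314.35, 326.93 and 477.07 in sensitive cells, 274.19, 298.62 and 277.17 in the docetaxel-resistant and 297.06, 143.79 and 241.28 in the paclitaxel-resistant line. All resistant arrays lay below all sensitive ones. The difference was -0.48 ± 0.21 (adjusted p = 0.143) with docetaxel and -0.72 ± 0.21 (adjusted p = 0.0309) with paclitaxel. The latter call ended without sensitive replicate 2, sensitive replicate 3 or paclitaxel-resistant replicate 2, with an adjusted p of up to 0.118.

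Because these 3 genes are consecutive in the measured order and moved differently, their RefSeq promoters are shown, 250 bases before to 50 after the gene start, on the plus strand of GRCh38.p14. They lie at chr18:3247232-3247531 for MYL12A, chr18:3261883-3262182 for MYL12B and chr18:3411759-3412058 for TGIF1. Capitals mark matches, on either strand, to CCAAT, the core of the NF-Y site, and to GGGCGG, the core of the GC box bound by SP factors; TATAAA was also searched and had no match in any of them.
MYL12A: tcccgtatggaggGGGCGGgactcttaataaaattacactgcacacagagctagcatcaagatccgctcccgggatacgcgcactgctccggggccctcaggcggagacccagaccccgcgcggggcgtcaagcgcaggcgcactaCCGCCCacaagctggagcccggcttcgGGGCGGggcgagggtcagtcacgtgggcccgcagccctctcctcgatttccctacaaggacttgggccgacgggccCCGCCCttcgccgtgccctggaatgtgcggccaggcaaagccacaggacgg
MYL12B: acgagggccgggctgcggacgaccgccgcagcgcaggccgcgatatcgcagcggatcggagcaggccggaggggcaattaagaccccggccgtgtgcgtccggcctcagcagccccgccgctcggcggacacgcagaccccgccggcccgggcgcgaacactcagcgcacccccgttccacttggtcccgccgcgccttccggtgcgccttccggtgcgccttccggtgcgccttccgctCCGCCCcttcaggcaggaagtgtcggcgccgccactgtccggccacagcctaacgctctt
TGIF1: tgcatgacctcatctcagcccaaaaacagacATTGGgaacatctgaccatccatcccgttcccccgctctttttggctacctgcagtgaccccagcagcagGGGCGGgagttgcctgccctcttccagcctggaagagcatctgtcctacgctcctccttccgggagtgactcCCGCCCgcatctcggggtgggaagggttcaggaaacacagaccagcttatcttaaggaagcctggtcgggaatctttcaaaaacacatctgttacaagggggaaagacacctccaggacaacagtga
MYL12A held 0 CCAAT and 4 GGGCGG matches, MYL12B 0 and 1, and TGIF1 1 and 2. The CpG count was 29, 45 and 9, and the G+C content 67.7%, 74.0% and 55.7%. RefSeq gives 1 start here, and genes such as TGIF1 have further starts.

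Promoters were found for 145 of the 161 members. Among the 20 short-arm genes that rose in either line, 1 promoter (5%) held a CCAAT match, against 7 of 23 for the other short-arm genes and 37.3% of the promoters of all genes tested. GGGCGG stood in 17 of these 20 (85%), against 16 of 23 (69.6%) for the other short-arm genes and 63.1% of all genes tested, and TATAAA in 0 of 20, against 8.3%. Of the 31 matched long-arm genes that rose, 17 (54.8%) held a CCAAT match, beside 22 of 71 for the other long-arm genes. GGGCGG stood in 71% of the long-arm genes that rose and in 54.9% of the others. Among the others at or above the median level over all arrays it stood in 9 of 11 (81.8%) on the long arm and in 1 of 3 on the short arm. The part of brightness in these shares was not tested. Over the whole RefSeq table of promoters of the same length the shares were 35.7% for CCAAT, 44.6% for GGGCGG and 12% for TATAAA. These shares are a description. No test was made of them, and a match is not a bound site.

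The longest unbroken run of genes called in 1 direction was on the short arm: TWSG1, PPP4R1, RAB31, VAPA and NAPG, all higher in the docetaxel-resistant line. RAB31, a small GTPase of endosomal traffic, had 265.39, 115.32 and 155.67 in sensitive cells, 441.34, 448.01 and 516.4 with docetaxel and 564.23, 557.95 and 477.72 with paclitaxel. The groups stood well apart, and the differences were 1.28 ± 0.19 (adjusted p = 0.000666) and 1.54 ± 0.19 (adjusted p = 0.000192). VAPA, an endoplasmic reticulum tether for lipid transfer proteins, was among the brightest members, at 1274.65, 634.69 and 766.38 against 1570.67, 1743.58 and 2300.66 and against 1922.64, 1790.08 and 1933.61. It rose 2.08-fold and 2.14-fold (SE 0.18 on the log2 scale in both, adjusted p = 0.002 and 0.00147), with no overlap of the groups. TWSG1, a secreted modulator of BMP signals, rose by 1.31 and 1.37 from a low mean level; without sensitive replicate 2 and docetaxel-resistant replicate 3 the docetaxel difference was 1.04 and did not pass (adjusted p = 0.0511). NAPG, a membrane fusion protein, rose by 0.76 and 0.85; its docetaxel call ended without docetaxel-resistant replicate 3 (adjusted p = 0.0713). PPP4R1, a regulatory subunit of protein phosphatase 4, rose by 0.90 (adjusted p = 0.00378) with docetaxel; with paclitaxel its difference was 0.50 (adjusted p = 0.0652).

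SEH1L, a nuclear pore component that also sits at kinetochores, had the largest short-arm difference in both lines on the log2(intensity + 16) scale, which shrinks that of genes near background such as GNAL. Its intensities were 136.89, 29.15 and 90.49 in sensitive cells, 274.76, 325.09 and 495.45 with docetaxel and 489.7, 292.97 and 259.63 with paclitaxel. Sensitive replicate 2 was low for this gene, yet every resistant array lay above every sensitive one. The differences were 1.95 ± 0.35 and 1.96 ± 0.35 (adjusted p = 0.00229 and 0.00201). GNAL, a stimulatory G protein alpha subunit, was close to 0 in sensitive cells, at 1.42, 3.39 and 1.21, and stood at 49.96, 39.39 and 39.99 with docetaxel and 40.73, 43.58 and 34.59 with paclitaxel. Every resistant array lay above every sensitive one, but all at intensities below the median level of all genes (about 54.4). GNAL differed by 1.66 ± 0.14 and 1.62 ± 0.14 (adjusted p = 1.75e-05 and 2.06e-05). Of its 3 further probe sets 2 were also called higher in both lines.

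**Figure D4:**
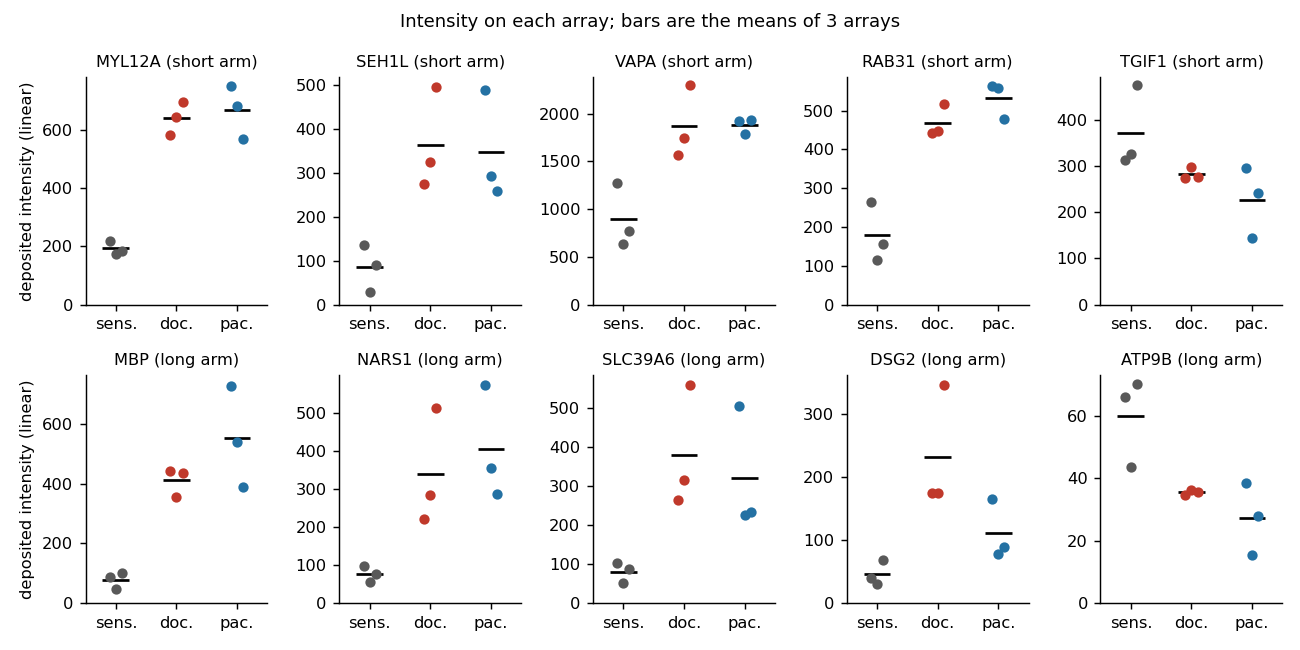
Deposited linear intensity (y axis, from 0; scales differ between panels) of 10 genes on each of 9 arrays, 3 per group (points; bars are group means), top row short arm, bottom row long arm. MYL12A, SEH1L, VAPA, RAB31, MBP, NARS1, SLC39A6 and DSG2 are higher on all resistant arrays than on all sensitive ones, and TGIF1 and ATP9B are lower.

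Other short-arm genes with roles in signalling rose in both lines. PTPRM, an adhesive receptor tyrosine phosphatase, rose by 1.00 ± 0.17 and 1.20 ± 0.17, and PTPN2, a phosphatase that restrains JAK-STAT signals, by 0.92 ± 0.15 and 0.76 ± 0.15. USP14, the proteasome-bound deubiquitinase and the first measured gene of the arm, rose by 1.06 ± 0.18 and 0.88 ± 0.18. AFG3L2, a protease of the mitochondrial inner membrane, rose by 0.69 ± 0.13 and 0.58 ± 0.13. MTCL1, which crosslinks microtubules and was singled out after its values were seen, had 181.9, 158.07 and 269.3 in sensitive cells against 507.6, 486.72 and 562.1 and against 437.59, 454.16 and 434.39. Its groups did not overlap, and it rose by 1.20 ± 0.16 and 1.05 ± 0.16. YES1, a Src-family kinase, and NDC80, a kinetochore protein that binds microtubules, were near background in sensitive cells. YES1 differed by 1.07 and 0.96 (adjusted p = 0.0259 and 0.0412) and NDC80 by 1.12 and 1.25 (adjusted p = 0.0474 and 0.0284). Both calls rest on single arrays: for YES1 without sensitive replicate 1 or 3 or docetaxel-resistant replicate 3 the docetaxel adjusted p was up to 0.0665, and without any 1 of the sensitive arrays or paclitaxel-resistant replicate 1 or 2 the paclitaxel one was up to 0.15. For NDC80 the largest values were 0.173 and 0.113, and leaving out any 1 sensitive array ended the call in both lines, as did docetaxel-resistant replicate 2 or 3 for docetaxel (and, through the shared spread, paclitaxel-resistant replicate 2 or 3), and paclitaxel-resistant replicate 1 or 2 for paclitaxel.

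Not every bright short-arm gene followed. IMPA2, an inositol monophosphatase, had 262.61, 273.16 and 245.84 in sensitive cells, 183.15, 239.93 and 202.73 with docetaxel and 179.7, 169.82 and 154.4 with paclitaxel. All resistant arrays were lower than all sensitive arrays. It fell by 0.60 with paclitaxel (adjusted p = 0.0167), a call that ended without sensitive replicate 2 or paclitaxel-resistant replicate 1 or 3 (adjusted p up to 0.0588), and its docetaxel difference was -0.45 (adjusted p = 0.0619). LPIN2, a phosphatidate phosphatase, showed 0.56 (adjusted p = 0.056) and 0.22 (adjusted p = 0.483). MC2R, the adrenocorticotropic hormone receptor and the last measured short-arm gene, showed -0.23 and -0.14 with overlapping groups (adjusted p = 0.36 and 0.632).

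On the long arm the largest rise in both lines was that of MBP, the gene of myelin basic protein. It had 88.37, 47.25 and 100.44 in sensitive cells, 441.77, 356.38 and 436.61 with docetaxel and 730.35, 540.08 and 389.95 with paclitaxel. No resistant array came near a sensitive one. The difference was 2.09 ± 0.22, a 4.25-fold change (adjusted p = 8.11e-05), with docetaxel and 2.55 ± 0.22, a 5.84-fold change (adjusted p = 1.78e-05), with paclitaxel. This holds for 1 probe set. The other 3 probe sets of MBP differed by -0.03 to 0.09 and by 0.11 to 0.15 and were not called, so the rise cannot be given to the gene's transcripts as a whole.

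Further large long-arm rises were those of NARS1, SLC39A6, PIK3C3 and MOCOS. NARS1, the asparaginyl-tRNA synthetase, had 96.49, 56.27 and 76.14 in sensitive cells against 220.41, 284.33 and 513.24 with docetaxel and 572.36, 354.31 and 285.35 with paclitaxel. The groups did not overlap, and it rose by 1.73 ± 0.26 and 2.10 ± 0.26 (adjusted p = 0.000843 and 0.000243). SLC39A6, a zinc importer first known from oestrogen-responsive breast cancer cells, had 102.75, 50.44 and 86.97 against 264.84, 316.75 and 559.2 and against 506.44, 225.19 and 233.68. It rose by 1.88 ± 0.28 and 1.72 ± 0.28 (adjusted p = 0.000852 and 0.00137), and its second probe set by 1.20 and 1.03. PIK3C3, the lipid kinase VPS34 of autophagy and endosomes, had 66.83, 11.91 and 37.28 against 119.21, 161.55 and 214.92 and against 277.9, 136.48 and 128.07. It rose by 1.71 ± 0.35 and 1.90 ± 0.35 (adjusted p = 0.0049 and 0.00249), while its dimmer second probe set showed -0.33 and -0.29 and was not called. MOCOS, the molybdenum cofactor sulfurase, rose by 1.61 ± 0.25 and 1.71 ± 0.25.

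Of 14 genes of mitochondria and metabolism on both arms 6 rose and 1 fell with docetaxel, and 7 rose and 1 fell with paclitaxel. Of all genes 10.8% rose in each line, and of the 161 members 29.2%. The list also held the melanocortin receptors MC2R, MC4R and MC5R, which are G protein-coupled receptors, and none of them was called. LIPG, a lipase that acts on phospholipids of lipoproteins, had 46.96, 42.57 and 63.37 in sensitive cells, 193.23, 176.35 and 175.12 with docetaxel and 293.48, 166.94 and 202.52 with paclitaxel. The groups stood apart, and it rose by 1.39 ± 0.17 and 1.75 ± 0.17 (adjusted p = 0.000181 and 3.17e-05). CYB5A, the electron carrier cytochrome b5, had 358.47, 200.24 and 242.62 against 547.7, 682.27 and 642.79 and against 1043.87, 963.05 and 791.46. It rose by 1.12 ± 0.16 and 1.74 ± 0.16 (adjusted p = 0.000507 and 2.19e-05), and all 4 of its probe sets were called higher in both lines. ACAA2, a thiolase of mitochondrial fatty acid oxidation, rose by 0.96 ± 0.16 and 1.60 ± 0.16, but its dimmer second probe set differed by only 0.10 and 0.19. FECH, the last enzyme of haem synthesis, rose by 0.85 and 0.95, with 0.08 and 0.06 on its second probe set. OSBPL1A, an oxysterol-binding protein, rose by 1.02 and 0.72, and the paclitaxel call ended without sensitive replicate 2 or paclitaxel-resistant replicate 1 or 2 (adjusted p up to 0.101). PIGN, of GPI anchor synthesis, was called with paclitaxel (0.67, adjusted p = 0.0185), a call that ended without sensitive replicate 2 or paclitaxel-resistant replicate 1 (adjusted p up to 0.0763); its docetaxel difference was 0.39 (adjusted p = 0.154).

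ATP9B, a phospholipid-transporting ATPase, was the member of that list that fell. It had 66.02, 43.72 and 70.16 in sensitive cells, 34.68, 36.29 and 35.7 with docetaxel and 38.5, 15.29 and 27.94 with paclitaxel. Every resistant array was below every sensitive one. It fell by 0.67 ± 0.18 (adjusted p = 0.0198) and 0.92 ± 0.18 (adjusted p = 0.00348). The docetaxel call ended without sensitive replicate 1 or 3 or docetaxel-resistant replicate 2 or 3 (adjusted p up to 0.066). CABYR, a calcium-binding protein of the sperm tail, fell by 0.57 with docetaxel (adjusted p = 0.0162), and SIGLEC15, a sialic acid-binding lectin, fell by 0.53 with paclitaxel (adjusted p = 0.0241). Neither held without sensitive replicate 2, without docetaxel-resistant replicate 2 or 3 for CABYR, or without sensitive replicate 3 or paclitaxel-resistant replicate 1 or 3 for SIGLEC15, with adjusted p up to 0.0731 and 0.0965.

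Among 5 genes of TGF-beta signalling 2 rose in each line, SMAD2 and SMAD4, and TGIF1 fell with paclitaxel. Of all genes 10.8% rose in each line, and of the 161 members 29.2%. SMAD2, a receptor-activated transducer, had 69, 39.4 and 48.29 in sensitive cells, 100.55, 102.09 and 162.08 with docetaxel and 161.03, 123.17 and 133.24 with paclitaxel. The groups did not overlap, the rises were 0.82 ± 0.17 and 1.14 ± 0.17 (adjusted p = 0.00563 and 0.000784), and all 3 of its probe sets were called higher in both lines. Without sensitive replicate 2 and docetaxel-resistant replicate 3 its docetaxel difference was 0.60 and did not pass (adjusted p = 0.0645). SMAD4, the common partner of the SMAD proteins, had 45.66, 18.49 and 44.45 against 61.95, 81.38 and 108.59 and against 107.64, 79.37 and 76.17. It rose by 0.80 ± 0.21 (adjusted p = 0.0195) and 0.99 ± 0.21 (adjusted p = 0.00644). Its second probe set, at about 15 to 19, differed by 0.06 and by -0.10 and was called in neither line. So dim a probe set has no clear direction, and the rise of SMAD4 rests on the brighter one alone. The docetaxel call also ended without docetaxel-resistant replicate 2 or 3 (adjusted p up to 0.0832). PIAS2 and LDLRAD4 were not called in either line.

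The same 2 SMAD genes and WDR7, a regulator of the vesicle proton pump, rose in each line. They were 3 of 6 candidates from the region often deleted in carcinomas, beside 10.8% of all genes and 29.2% of the 161 members that rose in each line. WDR7 rose by 0.62 and 0.85. Without both extreme arrays the docetaxel calls of all 3 ended, that of WDR7 with a difference of 0.49 (adjusted p = 0.0965). DCC, the netrin receptor, stayed dim at 23.3 to 49.98 over all arrays and showed 0.13 and 0.19 (adjusted p = 0.696 and 0.555). PHLPP1, a phosphatase of AKT, showed 0.21 in both lines (adjusted p = 0.314 and 0.323).

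Of the 6 measured desmosomal cadherins only DSG2 was called, higher in both lines, beside 10.8% of all genes and 29.2% of the 161 members in each. DSG2, the desmoglein of simple epithelia, had 38.95, 29.63 and 68.57 in sensitive cells, 174.92, 174.61 and 346.22 with docetaxel and 165.58, 78.65 and 88.34 with paclitaxel. Every resistant array exceeded every sensitive one. It rose by 1.85 ± 0.27 (adjusted p = 0.000689) and 0.98 ± 0.27 (adjusted p = 0.0228), and the latter call ended without sensitive replicate 1, sensitive replicate 2 or paclitaxel-resistant replicate 1 (adjusted p up to 0.0933). DSC1, DSC2, DSC3, DSG1 and DSG3 showed differences between -0.19 and 0.27, all at intensities below 56. None of CDH7, CDH19 and CDH20 was called.

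Ubiquitin, NF-kB and cytokine genes included 4 rises of 8 with docetaxel and 3 with paclitaxel. Beside these, 10.8% of all genes and 29.2% of the 161 members were called higher in each line. The rises of the list were USP14, NEDD4L, a ubiquitin ligase of membrane proteins (0.89 ± 0.14 and 0.82 ± 0.14), VPS4B, the ATPase that disassembles ESCRT filaments (1.01 ± 0.22 and 1.04 ± 0.22), and, with docetaxel, RNF138. Without both extreme arrays the docetaxel difference of VPS4B was 0.81 (adjusted p = 0.0825). RNF138, a ubiquitin ligase, showed 0.97 (adjusted p = 0.0376) and 0.90 (adjusted p = 0.0509); its docetaxel call ended without any 1 of the sensitive arrays, docetaxel-resistant replicate 3 or paclitaxel-resistant replicate 2 or 3 (adjusted p up to 0.121). MALT1, SOCS6, TNFRSF11A and ASXL3 were not called.

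Kinases, phosphatases and G proteins gave 6 rises of 11 in each line, all described above, beside 10.8% of all genes and 29.2% of the 161 members. IMPA2 was the single fall of this list, with paclitaxel. In the list of RNA, ribosome and protein traffic 6 of 16 rose in each line, beside 10.8% of all genes and 29.2% of the 161 members. The list as drawn up also held MBP, GALR1, GRP and COLEC12, which have no such role, and MBP was 1 of the 6. Its ribosomal gene RPL17 was not analysed here. The list held PSMG2, a proteasome assembly chaperone (1.07 ± 0.20 and 1.12 ± 0.20), TXNL1, a proteasome-bound thioredoxin (0.80 ± 0.19 and 0.88 ± 0.19; 0.49 and adjusted p = 0.0737 with docetaxel without both extreme arrays), and SS18, a subunit of BAF chromatin remodellers. SS18 showed 0.80 with docetaxel (adjusted p = 0.0218), a call that ended without sensitive replicate 2 or 3 or docetaxel-resistant replicate 3 (adjusted p up to 0.0946), and 0.48 with paclitaxel (adjusted p = 0.148). TXNL4A, a spliceosome protein, rose by 0.86 with paclitaxel (adjusted p = 0.00218) on its bright probe set, while its dim one fell by 1.04, so the gene has no settled direction.

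Of 14 transcription factors 1 rose in each line, ZNF532, a zinc finger protein (0.88 ± 0.14 in both), and TGIF1 fell with paclitaxel. Thus 7.14% rose in each, beside 10.8% of all genes and 29.2% of the 161 members. GATA6, TCF4, SETBP1 and NFATC1 were not called on their brightest probe sets. Fitted per probe set, 2 further ones of TCF4 were called higher with docetaxel (0.68 and 0.62, adjusted p = 0.0425 and 0.0257), and 1 of NFATC1 with paclitaxel (0.48, adjusted p = 0.029). Of 8 genes of mitosis, centrosome and DNA repair 2 rose with docetaxel and 3 with paclitaxel, and 0 fell. That is 25% and 37.5% of the list, beside 10.8% of all genes and 29.2% of the 161 members in each line. CEP192, the centrosome scaffold, was the third, at 0.93 ± 0.23 (adjusted p = 0.0136), beside 0.64 (adjusted p = 0.0741) with docetaxel. CEP76, SKA1, SMCHD1, POLI and CTDP1 were not called. Of 9 cytoskeletal genes the 2 myosin light chains were the only ones that rose, beside 10.8% of all genes and 29.2% of the 161 members in each line. ROCK1, the kinase that phosphorylates the myosin machinery and the first long-arm gene, showed 0.41 and 0.32 (adjusted p = 0.308 and 0.441). ADNP2, a homeobox zinc finger protein and the last long-arm gene measured, had 47.4, 27.46 and 67.77 in sensitive cells, 111.91, 125.37 and 159.16 with docetaxel and 135.5, 147.26 and 103.82 with paclitaxel. Its groups were apart, and both of its probe sets rose, the brighter by 1.11 ± 0.20 and 1.20 ± 0.20.

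The resistant lines were also compared with each other. The chromosome was chosen for rises in both lines against the same sensitive arrays, so this comparison is not independent of the choice. Only SERPINB7 was called among the 161 members, beside 1.96% of all genes, 0.978% higher and 0.986% lower. At an unadjusted p below 0.05 in limma there were 10 members. The share of all genes at that threshold is not given here or below, so such counts have nothing to be set against. The median difference, paclitaxel- minus docetaxel-resistant, was 0.02 on the short arm (-0.04 with no normalization), 0.06 on the long arm and 0.02 over all genes. For 157 of 161 members the 95% interval of the difference lay within a log2 difference of 1 in either direction. For MYL12A it ran from -0.19 to 0.39, for VAPA from -0.36 to 0.45 and for SEH1L from -0.74 to 0.78. Of the 161 members 104 lay below the median level of all genes, where the offset shrinks differences and their intervals. The count of 157 therefore does not show that the lines are alike.

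SERPINB7, a clade B serpin, had 1.89, 0.00 and 1.82 in sensitive cells, 10.14, 19.48 and 18.6 in the docetaxel-resistant and 3.5, 0.72 and 0.00 in the paclitaxel-resistant line. The docetaxel-resistant arrays stood above all others, at intensities that are still low for these arrays. The difference between the lines was -0.83 with an interval from -1.16 to -0.50 (adjusted p = 0.0178). Of 6 measured clade B serpins SERPINB7 was the 1 called against sensitive cells, with docetaxel (0.86 ± 0.15, adjusted p = 0.0021). Beside it, 10.8% of all genes and 29.2% of the 161 members were called higher. The call between the lines ended without docetaxel-resistant replicate 2 or 3 or paclitaxel-resistant replicate 2 or 3 (adjusted p up to 0.0924). Next in order came ACAA2 and CYB5A, higher with paclitaxel by 0.64 (0.29 to 0.99) and 0.62 (0.27 to 0.96), and DSG2, lower by 0.87 (0.27 to 1.46 lower), none of which passed (adjusted p = 0.0701, 0.0749 and 0.144).

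Probe sets that were not kept for a gene give a view of the same transcripts with other probes on the same arrays. For short-arm genes that rose, 9 of 13 further probe sets were called higher with docetaxel and 9 of 12 with paclitaxel, and 0 lower. For long-arm genes 13 of 26 and 14 of 25 were called higher, and 1, of TXNL4A, lower with paclitaxel. These probe sets belong to genes already called higher in the same comparison on the same arrays. A high share was therefore to be expected, and the counts are a description that supports nothing. Over all human probe sets, with no such restriction, 17.7% and 18.6% were called in either direction, and 1.60% between the lines. Further probe sets of MBP, ACAA2, FECH and SMAD4 were among those not called, as given with these genes above.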

How the data were processed

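RNA was measured from 9 cultures on Affymetrix arrays, 5 µg total RNA each. The authors deposited a linear intensity for each probe set on each array. Their software, per the submitters' processing notes, was Affymetrix Expression Console 1.1.2 with PLIER, which summarises probes into a probe set value. How the authors corrected background, normalized between arrays or called detection is not given in the sources used here. Arrays yield no read depth, so their number and the signal over background limit the precision.

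Of 22283 probe sets 68 were controls, and of the other 22215, 19065 named 1 gene, 1043 several and 2107 none; 19053 matched the RefSeq gene table, which gave symbol, chromosome and gene order. The probe set brightest on average stood for its gene. On the scale log2(intensity + 16) the medians of the arrays ranged over 0.27, above the limit of 0.2, so quantile normalization followed. The offset understates differences of dim genes. Intensities are printed as deposited, differences after these steps.

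One limma 3.58.1 model (R 4.3.3; 3 group means, eBayes, 6 residual and 5.40 prior degrees of freedom) gave 3 contrasts, with two-sided p adjusted by Benjamini-Hochberg over 11964 genes and called below 0.05. In data simulated for the docetaxel comparison, 67, 67 and 66 of 11964 genes were changed by 0.5, 1 and 2 (log2). Of these changes 7.46%, 71.6% and 97% were recovered. Only 121 genes were called there, against 2510 in the fit of the arrays, where the adjusted threshold is therefore looser. Simulated errors were independent, whereas 43.4% of the within-group variance of the arrays lay on 1 axis. The recovered shares therefore do not give the sensitivity of the fit used here. Same-numbered arrays correlated between -0.45 and 0.34, so the numbers were not taken to pair arrays.

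The members, gene lists and windows were chosen with earlier results of these data known. Named genes are, per comparison, up to 8 largest called rises and falls with groups apart and the higher mean above the median of all genes, runs of 4 or more neighbours called in 1 direction, the first and last gene of each arm, and called members of 12 role lists. Alternatives changed the probe set choice, offset, normalization, filter, variance model, block, groups fitted and arrays; leaving out the arrays with the lowest and the highest median and a level from the sensitive arrays alone were added after seeing the data.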

Additional observations from a re-analysis of the deposited data

Results flagged for a closer look

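SERPINB7 differed between the resistant lines: its difference from sensitive cells was lower in the paclitaxel- than in the docetaxel-resistant line by -0.83 on the log2 scale (limma, adjusted p = 0.0178), as a direct test between the lines showed. The gene was at 0.00 to 19.48 over all arrays, close to background. With an offset of 1 the difference was -2.87 (adjusted p = 0.0737), with an offset of 64 it was -0.27 (adjusted p = 0.0535), and with a replicate block it did not pass (adjusted p = 0.0528). Without sensitive replicate 2 and docetaxel-resistant replicate 3 the adjusted p was 0.0648. Whether the spread of so dim a probe set bears on the call was not tested.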

How the results depend on the processing

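The number of members called against sensitive cells was 49 of 161 (30.4%) with docetaxel and 51 (31.7%) with paclitaxel, beside 21.0% and 21.6% of all genes. With only the probe sets that end in neither _x_at nor _s_at (unique probe sets below), it was 29 of 117 members with docetaxel. With every probe set fitted on its own it was 74 of 267 probe sets, beside 17.7% of all human probe sets. For the other settings the share of all genes called is not given, so these counts are a description. Leaving out 1 array gave 37 (without docetaxel-resistant replicate 3) to 53 with docetaxel and 40 (without sensitive replicate 2) to 55 with paclitaxel.

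The medians against sensitive cells moved with the settings in size, not in direction. With docetaxel the short-arm median of 0.56 was 0.31 with unique probe sets, 0.78 and 0.24 with offsets of 1 and 64, 0.92 for genes at or above the median level and 0.35 without the arrays with the lowest and the highest median. The long-arm median of 0.12 became 0.073, 0.21, 0.061, 0.61 and 0.18 under these settings, 0.24 with no normalization and 0.10 to 0.20 without 1 array, the highest without sensitive replicate 2. With paclitaxel the short-arm median of 0.50 was 0.20 with unique probe sets, 0.30 with every probe set, 0.26 with an offset of 64 and 0.86 for the brighter genes. The long-arm median of 0.16 was 0.10 with unique probe sets, 0.27 and 0.078 with offsets of 1 and 64, 0.20 with no normalization, 0.67 for the brighter genes, 0.28 without the pair of extreme arrays, and 0.11 to 0.28 without 1 array (lowest without sensitive replicate 3, highest without sensitive replicate 2). The causes were not tested.

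Between the lines the count of 1 was 0 with unique probe sets (5 at an unadjusted p below 0.05 in limma), with an offset of 1 (10) and without the pair of extreme arrays (11), 2 with an offset of 64, among the brighter genes and with only the 2 lines fitted, and 0 to 2 without 1 array. The long-arm median was 0.0037 with no normalization, which put the median of all genes at -0.04 between the lines and at 0.04 in place of -0.05 with docetaxel.

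With the replicate number as a block, 49 and 48 members were called against sensitive cells and 0 between the lines (11 at an unadjusted p below 0.05 in limma). The numbers do not pair the arrays.

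SMAD4 with paclitaxel turned to -0.10 with unique probe sets and was not called there (limma adjusted p = 0.75). TXNL4A turned to -1.04 there and to -0.094 as the mean of its probe sets. Of calls against sensitive cells, 16 of 19 short-arm and 21 of 30 long-arm ones with docetaxel, and 16 of 20 and 23 of 31 with paclitaxel, held without any single array.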
